A study of Rattus norvegicus with 19 samples.

Results

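Messenger RNA of 10 endothelial and blood-brain barrier genes, Cldn5, Pecam1, Flt1, Kdr, Tek, Tie1, Vwf, Slc2a1, Eng and Fli1, was followed in the paraventricular nucleus (PVN) and the supraoptic nucleus (SON) of normotensive and hypertensive rats. Every probe set whose platform annotation gave a single symbol among these genes was taken. This gave 10 of the 14217 genes and 16 of the 31042 probe sets on the array, of which 4 belonged to Fli1, 3 to Flt1, 2 to Kdr and 1 to each of the other 7 genes. The arrays comprised 5 of PVN WKY, 5 of PVN SHR, 5 of SON WKY and 4 of SON SHR. WKY is the normotensive inbred strain and SHR the spontaneously hypertensive inbred strain, and all rats were untreated males labelled as 12 weeks old. The strains differ in genotype as well as in blood pressure, so the contributions of these to a strain difference cannot be told apart here. The study states that nuclei were pooled without making clear how many rats stand behind an array, so that p-values measure the spread between these arrays, which may differ from that between rats. Nor is it clear whether PVN and SON arrays came from the same rats. In tissue samples of this kind fewer cells of a type cannot be told apart from less RNA per cell. The vasopressin gene Avp and the oxytocin gene Oxt, which mark the magnocellular neurones of both nuclei, had log2 signals of 11.75 to 12.97 and of 11.60 to 12.72 over the 19 arrays. SON WKY array 3 stood apart from its group, with a mean correlation of 0.929 with the other arrays of that group, and printed group differences of the panel that changed sign or call, or moved by more than 1.5 times, when it was left out are also given without it.

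Endothelial cells line the capillaries of the brain and form the blood-brain barrier by sealing the clefts between neighbouring cells, suppressing vesicle traffic and carrying nutrients through dedicated transporters. Cldn5 (claudin 5) is the main claudin of these tight junctions, Pecam1 (CD31) is an adhesion molecule of endothelial contacts, and Slc2a1 is the glucose transporter GLUT1. Flt1 and Kdr are receptors of vascular endothelial growth factor, Tek (Tie2) and Tie1 form the angiopoietin receptor pair, Eng (endoglin) is a co-receptor of the transforming growth factor beta family, Vwf is the adhesive glycoprotein stored in endothelial granules, and Fli1 is an ETS family transcription factor of endothelial and blood cells. The magnocellular nuclei are known for a dense capillary bed, and the SON lies at the ventral surface of the brain, against the meninges. Several of these genes are not limited to endothelium, since astrocytes also contain GLUT1 and platelets also hold von Willebrand factor.

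RefSeq promoters of the assembly GRCr8, which is not a genome of either strain studied, were matched for Cldn5, Flt1, Kdr, Tie1, Slc2a1 and Eng, that is for 6 of the 10 genes. The promoters of the barrier genes Cldn5 and Slc2a1 are shown because their signals differed between the nuclei of WKY in opposite directions. In SHR the difference of Cldn5 did not pass the test. Each sequence runs 5′ to 3′ on the strand of the gene, from 250 bases before to 30 bases after the annotated start, with chr11:95718569-95718848 (minus strand) for Cldn5 and chr5:138002272-138002551 (plus strand) for Slc2a1. Capitals mark the ETS core GGAA, the core of the sites that Fli1 and its relatives bind, and the hypoxia response core ACGTG, each searched on both strands. None of the 6 windows held both motifs.
Cldn5: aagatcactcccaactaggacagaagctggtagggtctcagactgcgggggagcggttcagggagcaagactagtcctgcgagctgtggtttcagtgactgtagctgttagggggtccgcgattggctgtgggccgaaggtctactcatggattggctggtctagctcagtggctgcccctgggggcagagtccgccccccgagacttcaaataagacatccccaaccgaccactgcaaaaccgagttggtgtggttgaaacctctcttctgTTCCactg
Slc2a1: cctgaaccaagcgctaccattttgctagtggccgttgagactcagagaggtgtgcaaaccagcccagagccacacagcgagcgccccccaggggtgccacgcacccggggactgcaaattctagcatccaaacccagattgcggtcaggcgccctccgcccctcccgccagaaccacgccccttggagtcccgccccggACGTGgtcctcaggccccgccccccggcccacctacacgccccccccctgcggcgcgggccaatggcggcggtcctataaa
The ETS core occurred once in the Cldn5 window, 4 times in that of Kdr, 4 times in that of Tie1, 3 times in those of Flt1 and Eng, and had 0 matches in that of Slc2a1. So short a motif was present in 95% of 33469 promoter windows of the same length. The hypoxia core was present in 1 of the 6 windows, that of Slc2a1, against 18.2% of all windows. These matches describe the letters only.

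Levels are given as log2 signal, after each array had been scaled to a common median and signals under 3.75 (log2 1.91) had been raised to that floor. Differences are differences of mean log2 signal, so that a difference of 1 is a 2-fold change. Only probe sets with a group mean at or above the median over the whole array entered a test (log2 5.32 in the PVN, 5.31 in the SON and 5.32 over all groups), and those with a limma adjusted p under 0.05 were called. In all 4 groups this limit was reached by the probe sets of Cldn5, Tek, Tie1, Vwf, Slc2a1 and Eng, by 1377113_at of Flt1 and by 1367948_a_at of Kdr. Fli1 1393249_at reached it only in the SON groups, and Pecam1, Fli1 1377494_at and Fli1 1390914_at reached it in 1 group each. The remaining probe sets, 2 of Flt1, 1 of Kdr and Fli1 1383199_at, lay below it everywhere and were not tested. Signals of different probe sets were not set against each other, because each has its own probes.

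**Figure D1:**
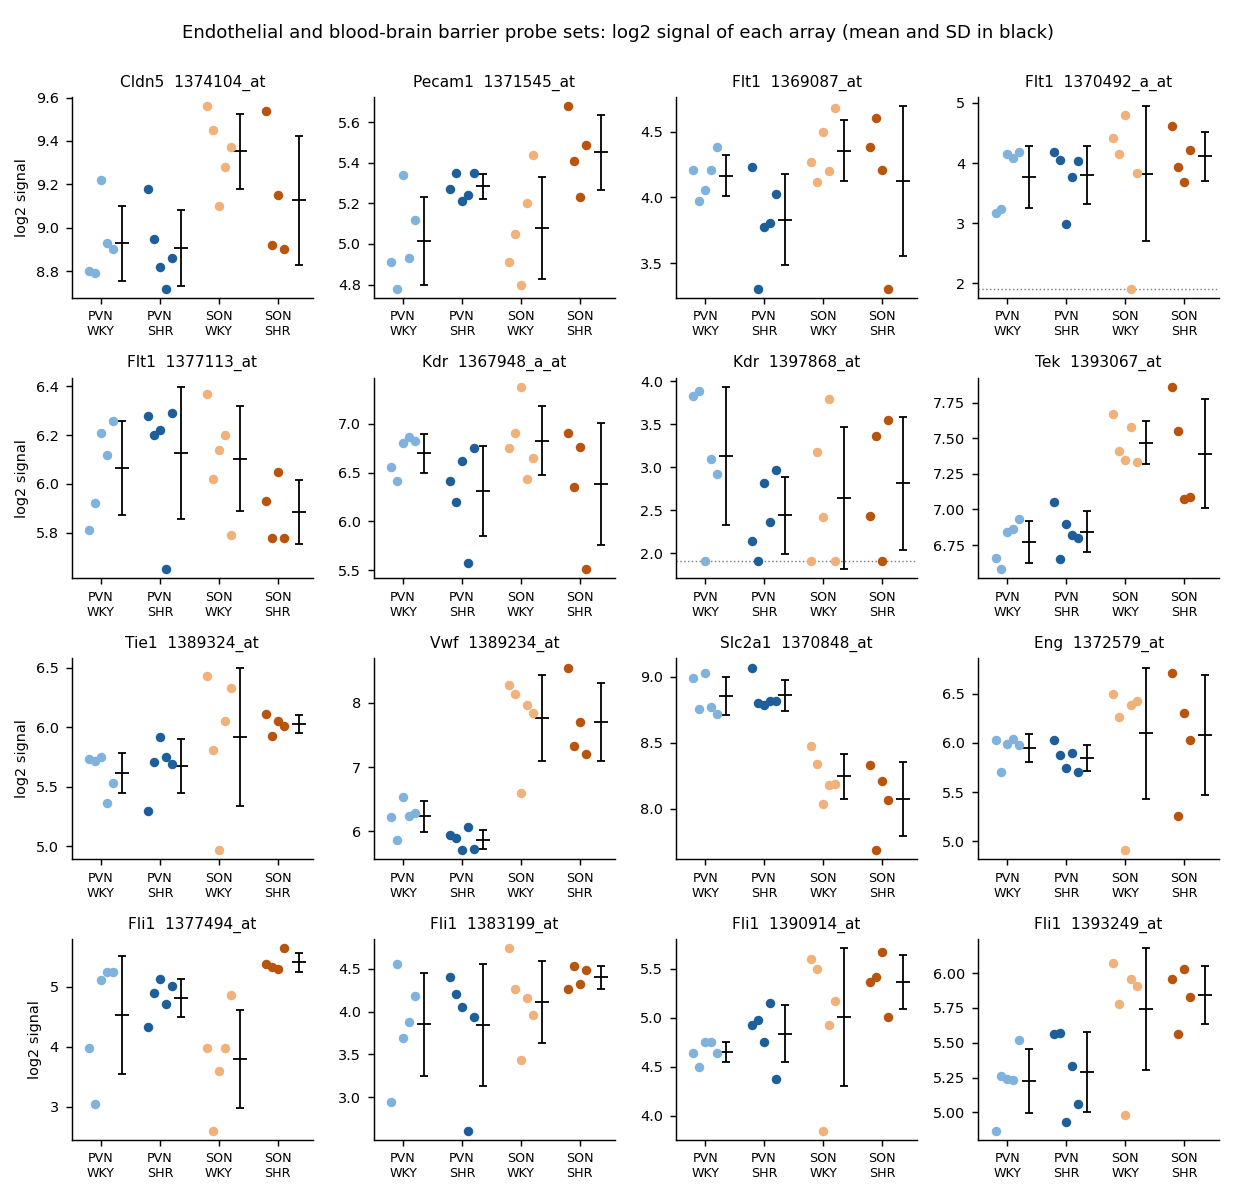
Log2 signal of the 16 probe sets (vertical axes, each with its own range) on every array of PVN WKY, PVN SHR, SON WKY and SON SHR (horizontal axis), with 1 point per array, the mean and SD in black, and the floor as a dotted line where values touch it. All SON arrays lie above all PVN arrays for Vwf and Tek and below them for Slc2a1, and for Fli1 1377494_at all SON SHR arrays lie above all SON WKY arrays.

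The clearest differences within the panel lay between the nuclei. Vwf and Tek were higher in the SON than in the PVN in both strains, Slc2a1 was lower in both, Cldn5 was higher in the SON of WKY, and Fli1 1393249_at was higher in the SON of both strains. In WKY, 4 of the 12 probe sets tested were higher, 1 was lower and 7 did not pass, and in SHR 3 were higher, 1 was lower and 8 did not pass. Calls between the nuclei were common on the array, with 26.9% of 17095 probe sets called in WKY and 29.4% in SHR. The median SON minus PVN difference over the 12 probe sets was 0.22 in WKY and 0.29 in SHR, beside -0.01 and -0.02 over all probe sets tested. Without SON WKY array 3 the median in WKY was 0.47 (0.02 over all probe sets tested), and 6 probe sets were higher and 1 lower in WKY and 4 higher and 1 lower in SHR, where 25.4% and 30.8% of 17064 probe sets were called. Pecam1 and the 3 Fli1 probe sets tested had entered the test through SON groups alone. With no filter, Fli1 1393249_at was not called in either strain. Of the 12 probe sets, 3 did not overlap between the nuclei in WKY and 5 in SHR, beside 21.9% and 23% of all tested. The comparisons in WKY and in SHR rested on different arrays.

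Vwf had the largest difference between the nuclei among the 12 probe sets. Its log2 signal was 6.23, 5.86, 6.54, 6.24 and 6.29 on the PVN WKY arrays and 8.28, 8.14, 6.60, 7.96 and 7.85 on the SON WKY arrays. In SHR it was 5.94, 5.90, 5.71, 6.06 and 5.73 in the PVN and 8.55, 7.33, 7.71 and 7.21 in the SON. Every SON array lay above every PVN array of its strain, although SON WKY array 3 (6.60) was only just above the highest PVN WKY array (6.54). The difference was 1.53 (standard error 0.26, 2.89-fold, adjusted p = 1.67e-04 from limma) in WKY and 1.83 (standard error 0.28, 3.55-fold, adjusted p = 4.21e-05) in SHR. Without SON WKY array 3 it was 1.82 in WKY. Vwf was the only probe set of the panel called with at least a 2-fold difference, in either strain, where 4.91% and 5.65% of all probe sets were.

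Of the angiopoietin receptors, Tek was called and Tie1 was not. The log2 signal of Tek was 6.66, 6.58, 6.84, 6.86 and 6.93 in PVN WKY and 7.67, 7.41, 7.35, 7.58 and 7.33 in SON WKY. In SHR it was 7.05, 6.65, 6.90, 6.82 and 6.80 in the PVN and 7.86, 7.55, 7.07 and 7.09 in the SON. The nuclei did not overlap in either strain, but the gap in SHR was small, between 7.05 on the highest PVN array and 7.07 on the lowest SON array. The difference of Tek was 0.70 (standard error 0.13, 1.62-fold, adjusted p = 5.72e-04 from limma) in WKY and 0.55 (standard error 0.14, 1.46-fold, adjusted p = 0.00614) in SHR. Tie1 had 5.62 ± 0.17 in PVN WKY (SD, n = 5), 5.67 ± 0.23 in PVN SHR (SD, n = 5), 5.92 ± 0.58 in SON WKY (SD, n = 5) and 6.02 ± 0.07 in SON SHR (SD, n = 4). Its difference was 0.30 in WKY (adjusted p = 0.271) and 0.35 in SHR (adjusted p = 0.212), where the nuclei did not overlap. In SON WKY a single array, number 3 with 4.97, lay far below the other 4, which ran from 5.81 to 6.43. Without that array the Tie1 difference in WKY was 0.53 and passed the test (adjusted p = 0.00600).

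The junction gene Cldn5 was higher in the SON of WKY by a small margin. Its log2 signal was 8.80, 8.79, 9.22, 8.93 and 8.90 in PVN WKY and 9.56, 9.45, 9.10, 9.28 and 9.37 in SON WKY, so that 1 array of each group overlapped. In SHR it was 9.18, 8.95, 8.82, 8.72 and 8.86 in the PVN and 9.54, 8.92, 9.15 and 8.90 in the SON, and the nuclei overlapped broadly. The difference was 0.42 (standard error 0.13, 1.34-fold, adjusted p = 0.0194 from limma) in WKY and 0.22 (standard error 0.14, adjusted p = 0.239) in SHR. The call in WKY was lost without PVN WKY array 2 (adjusted p = 0.0501) or without SON WKY array 1 (adjusted p = 0.0527). Whether the nucleus difference itself differed between the strains is given by the interaction, which was -0.20 for Cldn5 (adjusted p = 0.894). Pecam1, the other junctional gene, had 5.01 ± 0.22 in PVN WKY, 5.28 ± 0.07 in PVN SHR, 5.08 ± 0.25 in SON WKY (each SD, n = 5) and 5.45 ± 0.19 in SON SHR (SD, n = 4). Its SON minus PVN difference was 0.06 in WKY (adjusted p = 0.743), or 0.13 without SON WKY array 3, and 0.17 in SHR (adjusted p = 0.359).

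Slc2a1 was the only probe set of the panel called lower in the SON. Its log2 signal was 8.99, 8.76, 9.03, 8.77 and 8.72 in PVN WKY and 8.48, 8.34, 8.04, 8.18 and 8.19 in SON WKY. In SHR it was 9.07, 8.80, 8.79, 8.82 and 8.82 in the PVN and 8.33, 7.69, 8.21 and 8.07 in the SON. All 9 SON arrays lay below all 10 PVN arrays. The glucose transporter differed by -0.61 (standard error 0.12, adjusted p = 5.74e-04 from limma) in WKY and by -0.79 (standard error 0.12, adjusted p = 6.93e-05) in SHR, that is to 0.655 and 0.579 of the PVN signal. The calls of Vwf, Tek and Slc2a1 held in both strains under each of the 27 alternative settings tried, the omission of any single array included.

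For the VEGF receptors and endoglin, the nuclei differed by less than the test required. Flt1 1377113_at had 6.06 ± 0.19 in PVN WKY, 6.13 ± 0.27 in PVN SHR, 6.10 ± 0.22 in SON WKY (each SD, n = 5) and 5.88 ± 0.13 in SON SHR (SD, n = 4), with SON minus PVN differences of 0.04 in WKY and -0.24 in SHR. Kdr 1367948_a_at had 6.70 ± 0.20, 6.31 ± 0.46, 6.83 ± 0.35 and 6.38 ± 0.63 in the same order, with differences of 0.13 and 0.07. Eng had 5.95 ± 0.14, 5.85 ± 0.13, 6.10 ± 0.67 and 6.08 ± 0.61, with differences of 0.15 and 0.23. For Eng the spread in the SON was wide, since SON WKY array 3 was at 4.91 and SON SHR array 2 at 5.26 while the other SON arrays ran from 6.03 to 6.71. Without SON WKY array 3 the Eng difference in WKY was 0.44 (adjusted p = 0.0882) and that of Kdr was -0.01. The adjusted p of Flt1, Kdr and Eng ran from 0.206 to 0.864 over both strains, which does not show that the nuclei were alike for these genes. For Kdr, for example, the 95% interval of the difference in WKY ran from -0.37 to 0.63.

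Markers of other cell types were also called between the dissected nuclei. The share of all probe sets called was 26.9% in WKY and 29.4% in SHR. All 12 meningeal fibroblast genes examined were higher in the SON of both strains, with a median difference of 3.27 in WKY and 4.01 in SHR, and their summed signal was 425 to 529 in PVN WKY, 458 to 513 in PVN SHR, 3138 to 4938 in SON WKY and 3796 to 10262 in SON SHR. Of these 12, 9 entered the test through SON groups alone, so that a difference in that direction was favoured by the filter, and the other 3 were also called higher in both strains. Of 12 mural cell genes tested, 5 were higher in the SON of WKY and 9 in that of SHR, with 0 lower, and the summed signal of the mural list was 643 to 749, 617 to 700, 1025 to 1470 and 1253 to 2175 in the same order of groups. Of the mural genes 5, Tagln among them, had entered through SON groups alone, and of the remaining 7 the called were 3 in WKY and 4 in SHR. Of the mural list, the smooth muscle gene Tagln differed by 3.92 and 5.49 and Vtn, which pericytes express, by 2.59 and 2.29. Notch3 of that list went the other way in SHR, at -0.44 (adjusted p = 0.0576 from limma). Without SON WKY array 3 Notch3 was called lower there (adjusted p = 0.0437 from limma), and 7 mural genes were higher in WKY and 9 in SHR. Of 7 astrocyte genes, 3 were higher in the SON of each strain, among them Gfap by 1.13 and 1.36. The median over the 7 was 0.01 in WKY and 0.19 in SHR. Of 4 red cell and platelet genes, 2 were higher and 1 lower in WKY and 3 were higher in SHR, among them the platelet factor Pf4 by 0.92 and 1.21. Of 12 microglial and leukocyte genes, 2 were higher and 2 lower in WKY, and 5 were higher and 1 lower in SHR, with the perivascular macrophage gene Mrc1, which entered through SON groups alone, at 1.40 and 1.69. Of 8 neuronal genes 2 were lower in each strain, and of 2 choroid plexus genes 1 was lower in each. The share called was near that of all probe sets for the neuronal genes, and for the leukocyte genes in WKY. No gene of these lists lay at the floor on all arrays. The part of meningeal, mural and blood cells in the nucleus differences of Vwf, Tek and Cldn5 was not tested.

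**Figure D2:**
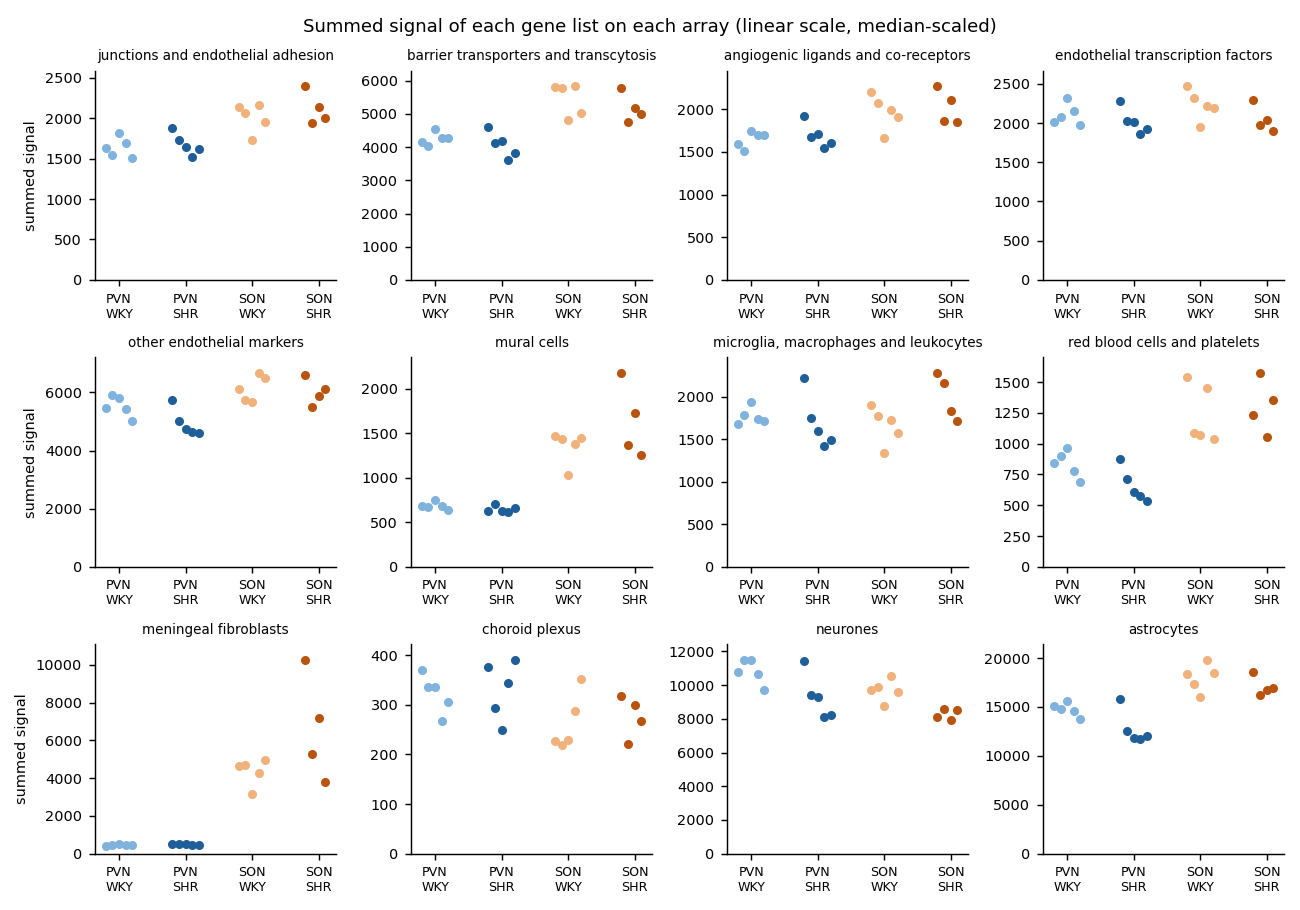
Summed linear signal (vertical axes, from 0, after scaling each array to the common median) of each gene list on every array of the 4 groups (horizontal axis), with 1 point per array. The meningeal sums reach at most 529 on the PVN arrays and between 3138 and 10262 on the SON arrays, the mural sums are also separated by nucleus, and SON WKY array 3 has the lowest mural and meningeal sum of the SON.

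The other genes of the vascular pathways were read from lists of genes outside the panel, with each gene represented by the brightest of its probe sets. Over these 5 lists 39.7% of 68 genes were called between the nuclei of WKY and 33.8% between those of SHR, beside 26.9% and 29.4% of all probe sets. Of 11 junction and adhesion genes tested, 3 were higher in the SON of WKY and 4 in that of SHR, and 0 were lower, which is near the share of all probe sets called. There were 5 in WKY without SON WKY array 3. They included the adhesion molecules Icam2 (0.82 in WKY and 0.70 in SHR) and Vcam1 (0.51 and 0.84), with Esam called in WKY (0.51) and Icam1 (1.34) and Lsr (0.63), which entered through SON groups alone, in SHR. Of 16 barrier transporter and transcytosis genes, 8 were higher in the SON of WKY and 6 in that of SHR, and 0 were lower, with medians of 0.24 and 0.17. The monocarboxylate transporter Slc16a1 differed by 0.95 and 0.97, the organic anion transporters Slco1a4 by 0.79 and 0.86 and Slc22a8 by 0.89 and 1.21, and the amino acid transporter subunit Slc3a2 by 0.54 and 0.46. The glucose transporter of the panel was thus called in the opposite direction to each of the transporters that passed the test.

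Among 14 angiogenic ligands and co-receptors, 5 were higher and 3 lower in the SON of WKY, and 4 were higher and 1 lower in that of SHR. The apelin receptor Aplnr differed by 2.64 and 3.05, the Tek ligand Angpt2 by 2.07 and 2.13, the growth factor Vegfa by 0.88 and 0.80 and the Notch ligand Jag1 by 1.14 and 1.31. Aplnr, Angpt2 and Jag1 entered the test through SON groups alone, which favoured a difference in that direction. The Flt1 ligand Pgf, which entered through PVN groups alone, was lower in WKY by -1.52 and the co-receptor Nrp2 was lower in both strains by -0.38 and -0.48. The calls of Nrp1 and Nrp2 in WKY were lost without SON WKY array 3 (adjusted p = 0.0575 and 0.0636), and then Pgf was also called in SHR (-0.83, adjusted p = 0.0217). Angpt2, Vegfa and Pgf are ligands of receptors in the panel, of which Tek passed the test and Flt1 and Kdr did not. Of 16 endothelial transcription factors, 3 were higher and 1 lower in WKY and 2 were higher and 1 lower in SHR, with Sox7 (0.82) and Lmo2 (0.60) higher in WKY, Klf4 (0.69) and Sox17 (0.61) higher in SHR, and the ETS factor Ets2 lower in both (-0.42 and -0.67). The share called was no higher than that of all probe sets. Of 11 further endothelial markers, 4 were higher in WKY and 5 in SHR, and 0 were lower, among them Egfl7 (1.06 and 0.65), the nitric oxide synthase Nos3 (0.83 and 0.74) and Cd93 (0.51 and 0.72). The medians of the endothelial marker list were 0.27 and 0.35. Nos3 had entered through SON groups alone and was no longer tested without SON WKY array 3, when 2 of the 10 markers tested were higher in WKY and 4 in SHR.

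Between the strains, no probe set of the panel was called in the PVN. Of the 8 tested there, limma called 0, where 2.36% of 16104 probe sets were called, and the methods' t-test on the same values also called 0. At an unadjusted p under 0.05 there was 1, that of Vwf. The Vwf signal was 6.23 ± 0.24 in PVN WKY (SD, n = 5) and 5.87 ± 0.15 in PVN SHR (SD, n = 5), a difference of -0.37 (95% interval -0.64 to -0.09, adjusted p = 0.193 from limma), and the arrays of the strains overlapped. Kdr 1367948_a_at differed by -0.39 (95% interval -0.78 to 0.01, adjusted p = 0.380), with PVN SHR array 4 at 5.57 and the other 4 SHR arrays at 6.20 to 6.75. Cldn5 differed by -0.02 (95% interval -0.27 to 0.23), Slc2a1 by 0.01 (95% interval -0.22 to 0.23) and Tek by 0.07 (95% interval -0.16 to 0.31). For all 8 probe sets tested in the PVN the 95% intervals lay within a 2-fold difference in either direction. Flt1, Tie1 and Eng differed by 0.06, 0.05 and -0.10. None of the 8 probe sets separated the strains in the PVN without overlap, against 4.37% of all tested. Below the limit of the test lay Pecam1, with 4.91, 4.78, 5.34, 4.93 and 5.12 in WKY and 5.27, 5.35, 5.21, 5.24 and 5.35 in SHR, a difference of 0.27 that did not pass when all probe sets were tested (adjusted p = 0.351).

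**Figure D3:**
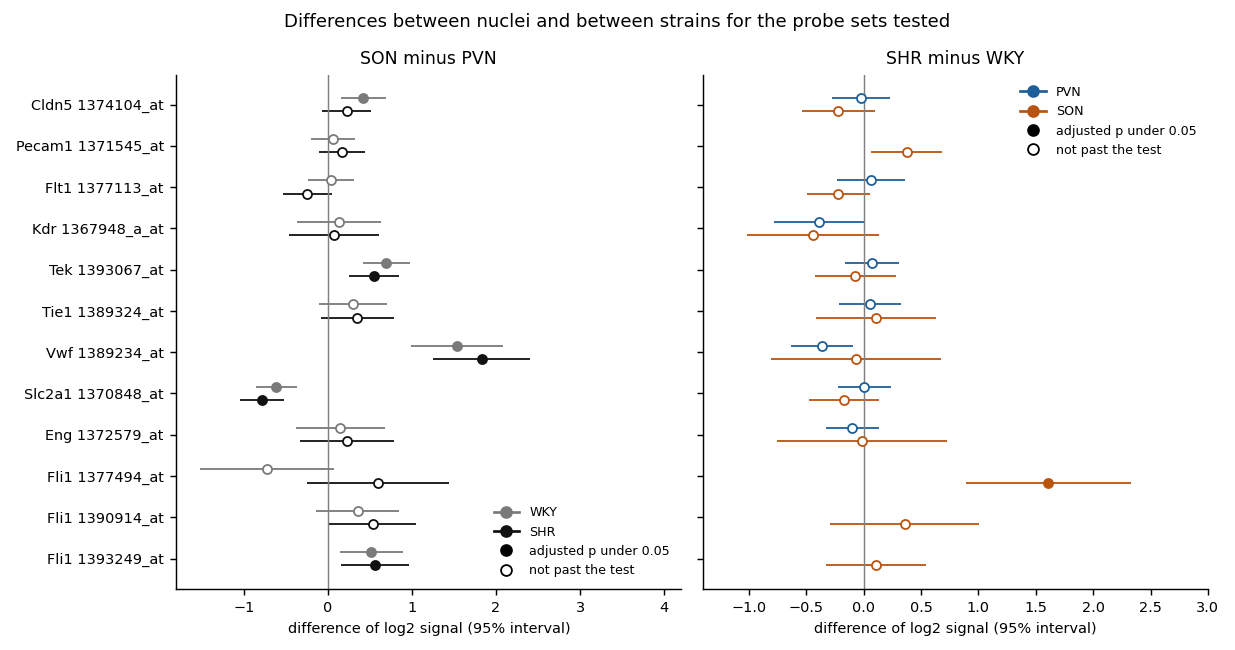
Differences of mean log2 signal (horizontal axes) for the probe sets tested (vertical axis), SON minus PVN on the left for WKY and SHR and SHR minus WKY on the right for the PVN and the SON, with 95% intervals from limma and filled points at an adjusted p under 0.05. Vwf, Tek, Slc2a1 and Fli1 1393249_at are filled in both strains on the left, Cldn5 in WKY only, and Fli1 1377494_at is the only filled point on the right.

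In the SON, 1 of the 12 probe sets tested differed between the strains. This was Fli1 1377494_at, higher in SHR, where 3.62% of 16190 probe sets were called and 1.29% were called higher. The 2 VEGF receptors differed by -0.22 (Flt1 1377113_at, adjusted p = 0.362) and -0.44 (Kdr 1367948_a_at, 95% interval -1.02 to 0.13, adjusted p = 0.386). Kdr was thus lower in mean in SHR in both nuclei, without passing the test in either, and in both a single SHR array number 4 lay lowest, at 5.57 in the PVN and 5.51 in the SON. Pecam1 had 4.91, 5.05, 4.80, 5.20 and 5.44 in WKY and 5.68, 5.41, 5.23 and 5.49 in SHR, a difference of 0.37 (95% interval 0.06 to 0.68, adjusted p = 0.170 from limma) with overlap between the strains, and its probe set was tested only because the SHR mean reached the limit. The remaining differences were -0.22 for Cldn5, -0.17 for Slc2a1, 0.11 for Tie1, -0.07 for Tek, -0.07 for Vwf and -0.02 for Eng, with adjusted p from 0.433 to 0.984. Leaving out SON WKY array 3, Tie1 changed sign to -0.13, Vwf was at -0.36 and Eng at -0.32, none of which passed (adjusted p from 0.430 to 0.617). The intervals of Vwf (-0.81 to 0.67) and Eng (-0.76 to 0.72) were wide. Over the 12 probe sets the median difference was -0.04, equal to the median of -0.04 over all probe sets tested, and without that array it was -0.17 beside -0.07.

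Fli1 was represented by 4 probe sets, which did not give the same picture. Fli1 1377494_at had log2 signals of 3.97, 2.60, 3.59, 3.98 and 4.86 in SON WKY and of 5.38, 5.33, 5.29 and 5.64 in SON SHR. All SHR arrays lay above all WKY arrays, and the SHR arrays were close together while those of WKY spread over more than 2 log2 units. The difference was 1.61 (standard error 0.33, 95% interval 0.89 to 2.33, 3.05-fold, adjusted p = 0.0196 from limma). Such a separation was seen in 9.83% of all probe sets tested. The probe set passed the filter only through the SHR group, in which it is high. It was not called when all probe sets were tested (adjusted p = 0.123), by the methods' t-test (adjusted p = 0.148), without SON SHR array 2 (adjusted p = 0.0552) or without SON SHR array 4 (adjusted p = 0.0524). Without SON WKY array 3 the difference was 1.56 (adjusted p = 0.0360).

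The other Fli1 probe sets did not separate the strains in the SON. Fli1 1390914_at had 5.60, 5.50, 3.85, 4.93 and 5.17 in SON WKY and 5.37, 5.42, 5.67 and 5.01 in SON SHR, a difference of 0.36 (adjusted p = 0.554). Fli1 1393249_at had 6.07, 5.78, 4.98, 5.96 and 5.91 in SON WKY and 5.96, 5.56, 6.03 and 5.83 in SON SHR, a difference of 0.10 (adjusted p = 0.818). Fli1 1383199_at, which was not tested for its low signal, had 4.74, 4.26, 3.43, 4.16 and 3.96 in SON WKY and 4.26, 4.53, 4.32 and 4.49 in SON SHR, a difference of 0.29. On each of these 3 probe sets the strains overlapped, and SON WKY array 3 was the lowest of the 9 SON arrays. Without that array the strain difference was 0.07 on 1390914_at, -0.09 on 1393249_at and 0.12 on 1383199_at. On Fli1 1377494_at the lowest was SON WKY array 2, and array 3 was not apart from the others.

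Whether the probe sets differed in their strain difference was tested on the per-array difference between each pair, over 6 pairs in each nucleus. In the SON the strain difference of Fli1 1377494_at exceeded that of 1383199_at by 1.32 (two-sided exact permutation p = 0.0238, adjusted p = 0.143), that of 1390914_at by 1.25 (exact permutation p = 0.0635, adjusted p = 0.254) and that of 1393249_at by 1.51 (exact permutation p = 0.0159, adjusted p = 0.143). With only 126 orders of 4 and 5 arrays, a lone pair could not pass after adjustment over 12 pairs. Of the 12 pairs, 2 had an unadjusted p under 0.05 and 0 passed after adjustment. The other 3 pairs in the SON differed by -0.06 to 0.25. When SON WKY array 3 was left out, the 3 pairs with 1377494_at were at 1.43 to 1.64 and the other 3 at 0.06 to 0.21, and 0 of the 12 pairs passed. In the PVN the 4 probe sets differed between the strains by 0.29 (1377494_at), -0.01 (1383199_at), 0.18 (1390914_at) and 0.06 (1393249_at), and the exact permutation p of the pairs was at least 0.484. There the WKY arrays of 1377494_at fell apart, with 3.97 and 3.04 on arrays 1 and 2 and 5.11, 5.24 and 5.25 on arrays 3 to 5, around the SHR arrays at 4.32 to 5.12.

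**Figure D4:**
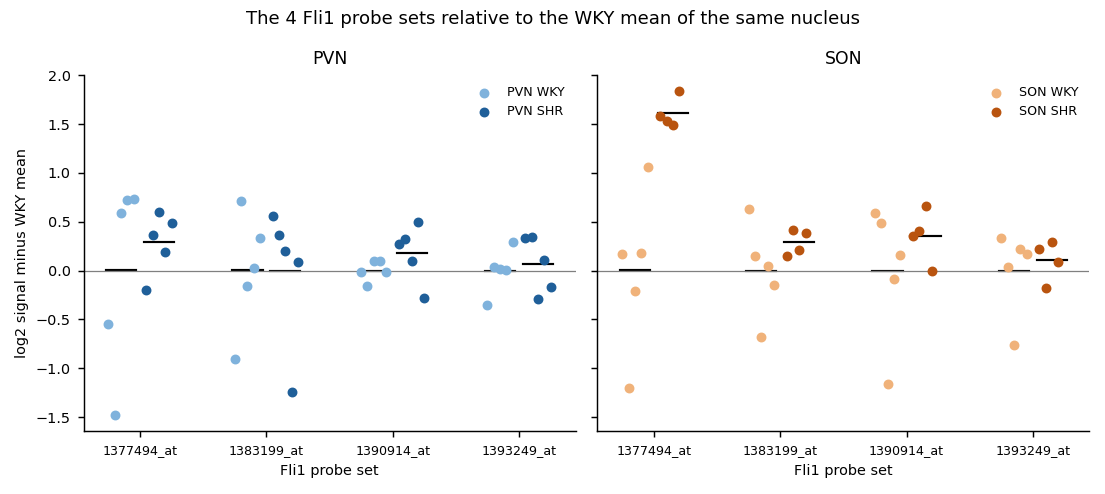
Log2 signal of the 4 Fli1 probe sets on each array minus the WKY mean of the same probe set and nucleus (vertical axis), for the PVN on the left and the SON on the right, with 1 point per array and black bars at the group means. On 1377494_at the SON SHR arrays lie 1.61 above the WKY mean on average, while on the other 3 probe sets they lie 0.10 to 0.36 above it among the WKY arrays.

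Between the nuclei, 1 of the 3 Fli1 probe sets tested was called, in both strains, and the differences between probe sets were not tested. Fli1 1393249_at was higher in the SON by 0.52 in WKY (standard error 0.18, adjusted p = 0.0396 from limma) and by 0.56 in SHR (standard error 0.19, adjusted p = 0.0339). The probe set passed the filter only through the SON groups, in which it is high. When all probe sets were tested it was called in neither WKY (adjusted p = 0.0853 from limma) nor SHR (adjusted p = 0.0772). These calls lay near the threshold and held in 15 and 19 of 26 alternatives. Without SON WKY array 3 the difference in WKY was 0.71 (adjusted p = 0.00132). Fli1 1390914_at differed by 0.36 in WKY (adjusted p = 0.281) and by 0.53 in SHR (adjusted p = 0.118), and without SON WKY array 3 it passed in both, with 0.65 in WKY (adjusted p = 0.00534) and 0.53 in SHR (adjusted p = 0.0160). Fli1 1377494_at was lower in mean in the SON of WKY, by -0.72 (adjusted p = 0.169), and higher in that of SHR, by 0.60 (adjusted p = 0.283), where the nuclei did not overlap. The opposite signs of its nucleus differences are the interaction of strain and nucleus, which was 1.32 (standard error 0.55, adjusted p = 0.668 from limma) and did not pass. Limma called 0 of the 12 probe sets for the interaction, where 0.0819% of 17095 were called, and 1 had an unadjusted p under 0.05, that of Fli1 1377494_at. The strain difference of this probe set in the SON is therefore not shown to differ from that in the PVN.

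Among the other vascular genes, 1 of the 54 tested was called between the strains in the PVN (1.85%, beside 2.36% of all probe sets) and 2 of the 67 tested in the SON (2.99%, beside 3.62%), so that both shares were near that of the array. In the PVN the semaphorin and VEGF co-receptor Nrp2 was higher in SHR by 0.48 (adjusted p = 0.0113 from limma), the only gene of the 5 vascular lists that was called. In the SON the cationic amino acid transporter Slc7a1 was lower in SHR by -0.46 (adjusted p = 0.0335) and the transcription factor Sox7 by -0.80 (adjusted p = 0.00702), and 0 genes of these lists were higher. Of the endothelial transcription factors tested in the SON, 1 was thus called lower and 15 did not pass. Of 12 meningeal genes tested in the SON, 3 were called higher in SHR and 0 lower, a larger share than the 3.62% of all probe sets. They were Crabp2, Lum and Dcn, at 1.04, 1.00 and 1.04. Also higher in SON SHR was Mrc1, 1 of 12 leukocyte genes tested, by 0.61 (adjusted p = 0.0459 from limma). Pf4, 1 of 4 red cell and platelet genes tested, was higher there by 0.58 (adjusted p = 0.0310). The cells that gave these signals were not told apart. Dcn (0.85, adjusted p = 0.0527) and Mrc1 (0.53, adjusted p = 0.0626) did not pass without SON WKY array 3. The summed leukocyte signal was 1341 to 1901 in SON WKY and 1712 to 2276 in SON SHR. The part of these cells in the Fli1 1377494_at difference was not tested. Of 12 mural genes 0 were called between the strains in the SON, and in the PVN 0 of the genes on the mural, leukocyte, blood, meningeal, choroid plexus, neuronal and astrocyte lists were called.

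Arrays of a group deviated from their mean in several genes of the panel at once. SON WKY array 3 lay lowest in its group for 8 of the 12 probe sets, with a mean deviation of -0.47, and also had the lowest summed mural signal of that group (1025, against 1377 to 1470 on the other 4 arrays), the lowest leukocyte signal (1341, against 1567 to 1901) and the lowest meningeal signal (3138, against 4288 to 4938). Its neuronal (8781, against 9615 to 10560) and astrocyte sums (16033, against 17301 to 19818) were also the lowest of the group. So were its sums of the 5 vascular lists, but not those of the blood and choroid plexus lists. SON SHR array 1 lay highest for 8 of the 12 (mean deviation 0.30), and had the highest meningeal sum of its group. PVN WKY array 2 lay lowest for 8 of the 12 (-0.27). The 66 pairs of probe sets had a median Pearson r of 0.31 between their deviations from the group means over the 19 arrays, and 56 pairs were positive. Without SON WKY array 3 the median was 0.23 over 18 arrays. The mean r was 0.32, beside 0.13 over all pairs of probe sets tested, and all pairs share the same arrays and scaling. Vwf and Eng had the highest r (0.880, and 0.736 without SON WKY array 3), followed by Cldn5 and Vwf (0.775 and 0.808). Cldn5 and Slc2a1, called in opposite directions between the nuclei of WKY, moved together within the groups (0.763 and 0.733).

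**Figure D5:**
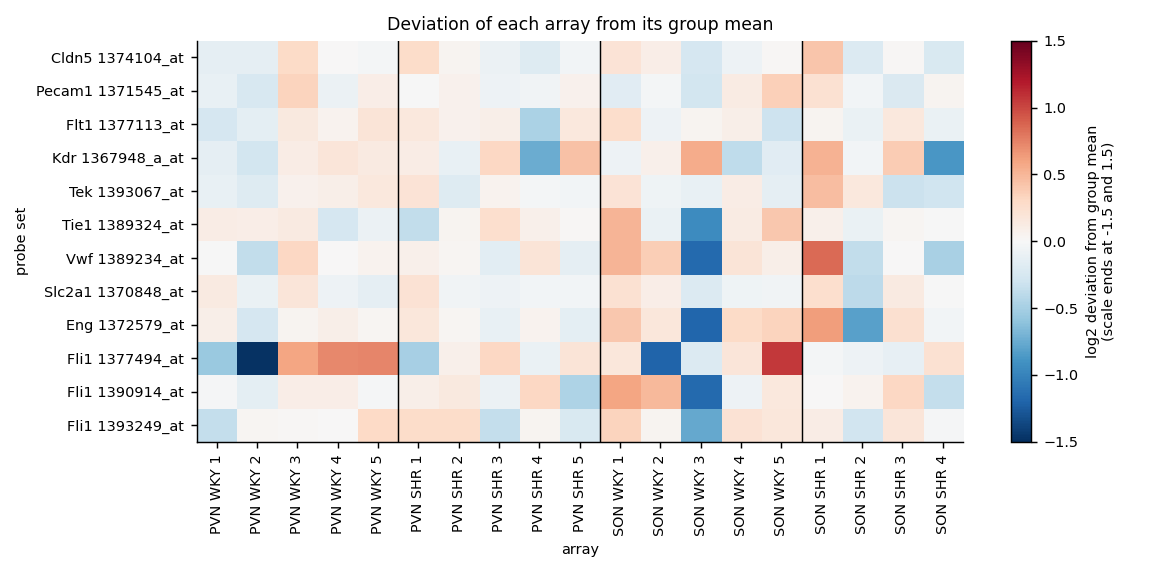
Deviation of each array from its group mean in log2 signal (colour, blue below and red above) for the 12 probe sets tested (vertical axis) and the 19 arrays (horizontal axis, groups parted by black lines). SON WKY array 3 is blue for Tie1, Vwf, Eng, Fli1 1390914_at and Fli1 1393249_at and red for Kdr, and Fli1 1377494_at is lowest on PVN WKY array 2 and SON WKY array 2, at -1.48 and -1.20.

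The genes whose deviations followed the panel most closely were sought among 12986 probe sets of other genes with a single symbol, over the 19 arrays. The highest r among so many candidates is raised by selection, and the level that chance gives was not tested. For Cldn5 the 5 closest were the phospholipid transfer gene Pltp (r = 0.964), Mvb12b (0.944), Fam120a (0.933), Lmo4 (0.912) and Crip2 (0.911), and for each of these r stayed above 0.90 without SON WKY array 3. For Fli1 1377494_at the closest were Ip6k2 (0.763), Pum3 (0.727), Akr1c15 (0.727), Smtn (0.717) and Akap13 (0.693). For Fli1 1383199_at they were Elp4 (0.910), Mrpl50 (0.879), Gba2 (0.862), Afmid (0.850) and Camk2g (0.841). Fli1 1390914_at was closest to Dhrsx (0.887), Tmem132c (0.853), Pgf (0.850), Msx1 (0.848) and Faf2 (0.846), and Fli1 1393249_at to Tpm1 (0.850), Dhrsx (0.844), Mettl25b (0.835), Ppp3r1 (0.831) and Gpank1 (0.818). Without SON WKY array 3 the r with Fli1 1390914_at fell to between 0.456, for Faf2, and 0.575, for Pgf, over all but Dhrsx, for which it stayed higher. Those with Fli1 1393249_at fell to between 0.584 and 0.673, and those of the other 2 Fli1 probe sets lay between 0.714 and 0.914. Dhrsx was shared by 2 of the 4 Fli1 probe sets, and its r with Fli1 1393249_at was 0.666 without that array. Fli1 1390914_at and 1393249_at correlated with each other at 0.709, and at 0.330 without that array.

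The probe sets of Flt1 and Kdr that were not tested had low signals. Flt1 1369087_at ran from 3.31 to 4.68 over the 19 arrays. Flt1 1370492_a_at ran from the floor, on SON WKY array 4, to 4.80. Kdr 1397868_at ran from the floor, on 5 arrays, to 3.88. They give no measure of the receptors beside that of the tested probe sets, for which single arrays ranged from 5.65 to 6.37 for Flt1 1377113_at and from 5.51 to 7.38 for Kdr 1367948_a_at.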

How the data were processed

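RNA was measured on 1 microarray type in 19 samples grouped by their labels. The deposited values are intensities, MAS 5.0 signals on a linear scale which the authors computed from the array scans after a single round of linear amplification. Their later GeneSpring normalisation and present calls were not used here. The paper gives n = 5 for its groups, while the series held 4 SON SHR arrays. The 57 control probe sets were dropped, and arrays were scaled to a common median (deposited medians 35.9 to 46.5), floored at the 10th percentile, transformed to log2 and filtered as the text states, and no array was left out. Array number limits precision. Symbols came from the platform annotation, updated through Entrez (20826 probe sets with a single symbol, 436 with several, 9780 with none). Probe sets ending in _a_at can bind several transcripts.

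The strains were compared within each nucleus in R 4.3.3 with the lmFit and eBayes functions of limma 3.58.1 (two-sided, Benjamini-Hochberg over all probe sets tested), and the nuclei and the interaction in a fit of all 4 groups. Pairs of Fli1 probe sets were compared by exact permutation. The panel, the 12 gene lists (156 of 171 names on the array) and the tests were chosen with earlier results of these data known. Genes named beside the panel were, by rule, up to 4 per list and comparison with the smallest adjusted p among those that passed, and the 5 closest to Cldn5 and to each Fli1 probe set. No arrays were identical, the highest correlation between arrays was 0.974, and the procedure was tested on simulated data. Alternatives covered scaling, floor, filter, moderation, the methods' t-test, samples in the fit, a replicate block and each array left out, and the gene lists were refitted without SON WKY array 3, an alternative chosen after seeing the data. Python 3.11.15 and matplotlib 3.10.9 drew the figures.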

Additional observations from a re-analysis of the deposited data

Results flagged for a closer look

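In 7 of the 64 sets of arrays of a probe set in a group (10.9%), a single array lay far from the others by Dixon's ratio of its gap to the whole range, where chance gives about 1 in 20. In SON WKY the outlying array was number 3 each time, low for Vwf (6.60, ratio 0.746), Eng (4.91, ratio 0.853) and Fli1 1393249_at (4.98, ratio 0.733). PVN SHR array 4 was low for Flt1 1377113_at (5.65, ratio 0.855) and for Fli1 1383199_at (2.61, ratio 0.737). PVN SHR array 1 was high for Slc2a1 (9.07, ratio 0.875), and PVN WKY array 2 was low for Eng (5.70, ratio 0.847).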

How the results depend on the processing

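Of 256 alternative counts of called probe sets, 243 stayed within 1.5 times the reported count, and of 1547 alternative values of single probe sets and pairs 0 changed the direction of a call, 24 lost a call and 8 gained one. The strain count in the SON, 1 as reported, was 0 with no filter, with the stricter filter (75th percentile) and by the methods' t-test, and from 0 to 1 with single arrays left out, with 0 without SON SHR array 2 or 4. With at least 2-fold it was 0 under the same settings and with log2(signal + 16), where the Fli1 1377494_at difference was 0.92. With single arrays left out, the count between the nuclei ran from 3 to 7 in WKY (3 without SON WKY array 1) and from 3 to 5 in SHR, the 2-fold counts from 1 to 2 in WKY (2 without PVN WKY array 2) and at 1 in SHR, and the counts for the PVN strains, the interaction and the Fli1 pairs at 0. The causes were not tested. Arrays of the same replicate number correlated little (r from -0.226 to 0.0799 between the PVN strains, -0.0144 to 0.104 between the SON strains, -0.00909 to -0.00113 between the nuclei of WKY and 0.0351 to 0.174 between those of SHR). With so few arrays this cannot exclude pairing. The paper dissected both nuclei from the same brain sections, so PVN and SON arrays may share rats. With the replicate number as a block, Fli1 1377494_at passed between the nuclei of WKY (-0.72, adjusted p = 0.0212), Fli1 1393249_at did not in WKY (0.52, adjusted p = 0.0625) or SHR (0.50, adjusted p = 0.0994), and no other call changed. In the fit of 2 groups Fli1 1377494_at and 1390914_at passed between the nuclei of SHR, at 0.60 (adjusted p = 0.0146) and 0.53 (adjusted p = 0.0348). Flt1 1377113_at passed there without PVN SHR array 4 (-0.36, adjusted p = 0.0330). With 4 or 5 arrays a group and signals of Fli1 near the filter limit, small differences of the low probe sets lie outside what these arrays resolve.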
